A study of Mus musculus with 4 samples.

Results

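The 4 Hox gene clusters of the mouse were examined in peak lists from chromatin immunoprecipitation followed by sequencing (ChIP-seq), which maps where a protein or a histone mark sits on DNA. The members were chosen by position alone: every peak of the 4 lists that overlapped a cluster window of the mm9 genome build by at least 1 bp. The windows were chr6:52095000-52225000 for Hoxa, chr11:96045000-96240000 for Hoxb, chr15:102740000-102880000 for Hoxc and chr2:74490000-74615000 for Hoxd. They held 54 of the 125330 peaks on chromosomes 1 to 19 and X: 46 peaks of dimethylated lysine 4 of histone H3 (H3K4me2), 4 of Etv6, 3 of the library called EGFP_OK and 1 of Pax6. The clusters contain 38 Hox genes on the list used here, 10 in Hoxa, 10 in Hoxb, 9 in Hoxc and 9 in Hoxd.

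All libraries came from ES-derived neural progenitor like cells of the strain 129/SvJ at passages 15 to 18. In 3 libraries the chromatin was precipitated with an antibody against the FLAG tag. Their titles name Pax6 and Etv6 in cells marked NS, and EGFP and OK in cells marked N31, for which no source used here names the tagged protein. The remaining library was precipitated with an antibody against H3K4me2, and its title names N31, Oct4, EGFP and 0 hr. Nor do they say how the tagged proteins were expressed or whether any line was a single clone. The N31 and NS labels run with the libraries, so cells and factors cannot be told apart. No H3K4me2 library of cells marked NS was among them. Pax6 and Etv6 peaks are therefore set beside the mark of cells marked N31 throughout. Each group was 1 library without a control or a replicate. The intervals given therefore hold counting error only, and variation between libraries of a group could not be measured. No test between libraries or regions was made. After removal of duplicates 21498324 tags were kept for EGFP_OK, 5288154 for Pax6, 24071748 for Etv6 and 24550365 for H3K4me2. The lists carry no gene names and no mm9 gene annotation was used here, so peaks are given by position and the cells' marker genes were not examined.

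Hox genes encode homeodomain transcription factors that give cells their identity along the head-to-tail axis of the embryo. Within a cluster the genes lie in the order in which they act along that axis, from the anterior genes, with low numbers, to the posterior genes, with high numbers. In the nervous system they pattern the hindbrain and spinal cord, and most of the forebrain forms without them. Where Hox genes are silent they are typical targets of Polycomb proteins. H3K4me2 is found at active and poised promoters and enhancers. Pax6 is a paired-box and homeobox factor of the eye and forebrain, and Etv6 is a factor of the ETS family, most members of which bind the core GGAA.

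By the gene order of assembly GRCm38, used here as an order only, Hoxa runs from Hoxa2 at the low coordinates to Hoxa13 at the high ones. The other clusters run the other way, from Hoxb13 to Hoxb1, from Hoxc13 to Hoxc4 and from Hoxd13 to Hoxd1. Because Hoxa is read in the opposite direction, the anterior genes are at the low end of the Hoxa window and at the high end of the others.

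The promoters were rich in CpG dinucleotides, and 1 of them held an ETS motif of the kind searched. RefSeq sequences of the 250 bases before a gene start (GRCm38.p6) were found for 22 of the 38 genes, with 24 starts. They held a median of 12.5 CpG, from 2 to 35, against a median of 6 over 32851 promoters of all genes. Of the 24, 19 (79.2%) were above that value, as were 46.3% of all promoters. The ETS motif CCGGAAGT was in 0 of 24 on either strand, against 2.88% of all promoters. Its first letters alone, CCGGAA, were in 1 of 24, against 12.03%. Of Hoxc only 1 start was found, and of Hoxb 3, so the values are mostly those of Hoxa and Hoxd, with 10 each. GRCm38 positions are not comparable with the mm9 positions of the peaks, so no peak was assigned to a promoter. To show the range, the richest and the poorest of the 24 are printed with CG in capitals, Hoxa13 with 35 CpG (GRCm38.p6 chr6:52260881-52261130, minus strand) and a start of Hoxd11 with 2 (chr2:74679308-74679557, plus strand), both genes of the posterior group. The bases around the single CCGGAA, near the inner start of Hoxa10 (chr6:52235145-52235174, minus strand), are printed with the motif's complement in capitals.
Hoxa13: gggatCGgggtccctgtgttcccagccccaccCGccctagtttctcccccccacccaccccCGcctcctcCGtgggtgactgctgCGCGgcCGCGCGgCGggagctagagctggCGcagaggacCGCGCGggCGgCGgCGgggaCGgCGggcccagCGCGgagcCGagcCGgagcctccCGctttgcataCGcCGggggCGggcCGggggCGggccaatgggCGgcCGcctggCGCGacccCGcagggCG
Hoxd11: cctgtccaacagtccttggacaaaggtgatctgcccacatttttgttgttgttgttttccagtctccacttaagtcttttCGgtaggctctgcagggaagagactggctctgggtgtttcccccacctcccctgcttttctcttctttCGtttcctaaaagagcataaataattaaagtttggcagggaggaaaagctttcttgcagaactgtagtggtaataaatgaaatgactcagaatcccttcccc
Hoxa10: cagcccccacagTTCCGGcctttgagccat

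To ask how far the clusters carried H3K4me2, the bases covered by H3K4me2 peaks were compared with 200 kb on each side. All 4 windows held peaks, and by bases covered in the full list Hoxa had the most and Hoxd the least. In Hoxa, 17 peaks covered 26.7% of the window, against 5.17% of its flanks, a ratio of 5.17. In Hoxd, 9 peaks covered 5.95%, against 1.39% of the flanks, a ratio of 4.29. In Hoxb, 12 peaks covered 10.8% against 7.29%, and in Hoxc 8 peaks covered 8.32% against 7.31%. Over the 4 windows 12.7% of the bases were covered, against 5.29% of the flanks, with 7.80 and 2.63 peaks per 100 kb. By peaks per 100 kb Hoxa was again highest, with 13.1, and Hoxd, with 7.20, was above Hoxb, with 6.15, and Hoxc, with 5.71. The order of coverage also depended on the weaker peaks. Among the highest 16604 peaks of the list, Hoxa coverage was 6.17% (ratio 1.72), Hoxb 6.48%, Hoxc 5.14% and Hoxd 0.694%.

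The flanks were uneven, so the comparison depended on the side. Before the Hoxa window, beyond its anterior genes, 9.57% of 200 kb was covered, and after it, beyond Hoxa13, 0.763%. For Hoxb the side beyond Hoxb13 had 11.5% and the side beyond Hoxb1 3.08%. For Hoxc the side beyond Hoxc13 had 3.62% and the side beyond Hoxc4 10.99%, which is above the window itself. With flanks of 500 kb the Hoxc ratio fell from 1.14 to 0.653, and with flanks of 100 kb it was 4.05. Both flanks of Hoxd were low, at 1.25% and 1.52%.

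**Figure D1:**
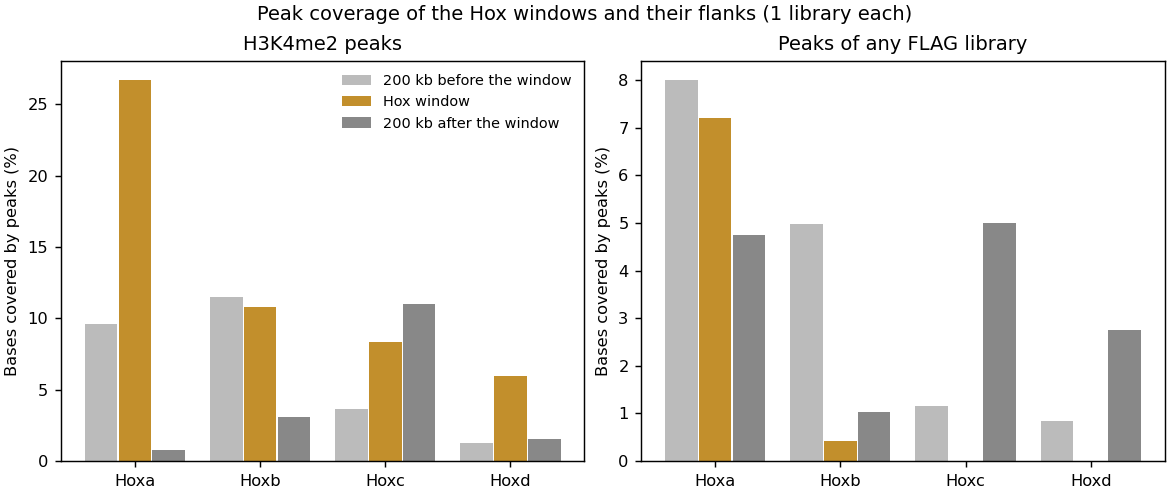
Percent of bases covered by H3K4me2 peaks (left) and by peaks of any FLAG library (right) in each Hox window (middle bar) and in the 200 kb before and after it, 1 library each and no error bars. H3K4me2 covers 26.7% of Hoxa and under 11% of the other windows, and the FLAG bars of the Hoxc and Hoxd windows are at 0.

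Coverage was also set beside all tiles of a window's length laid along the chromosomes between the first and last H3K4me2 peak. The median tile had between 1.46% and 1.79% of its bases covered. Only 0.228% of 19713 tiles reached the Hoxa value, whereas 9.20% of tiles reached that of Hoxb, 15.9% that of Hoxc and 24.0% that of Hoxd. The windows were chosen around known genes, which the tiles were not, and the shares are a description.

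Within Hoxa H3K4me2 peaks lay along most of the window, with more bases covered on the anterior side. Of 26 steps of 5 kb, 21 held part of a peak and 5 were covered over more than 50% of their bases, the most 82.7% between 25 and 30 kb from the window start. Cut at its midpoint, the window was 31.9% covered on the side of the anterior genes and 21.5% on the side of Hoxa13. By number the peaks were about even, 8 and 9, with a median enrichment of 5.11-fold and 7.33-fold, and both Hoxa peaks over 3 kb wide were on the anterior side. The longest stretch without a peak was 16.5 kb, from 52172495 to 52188960. The widest peak of all the windows lay near the low end, at chr6:52106852-52113163, and was 6312 bp wide with 836 tags (95% Poisson interval 780 to 895). The next widest, at chr6:52120867-52125761, was 4895 bp wide with 691 tags (640 to 744).

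These wide Hoxa peaks had many tags but low enrichment in the authors' scale. By tags per kb the first was among the highest 7.05% of the H3K4me2 list and the second among the highest 4.60%. By the authors' score, which is 10 times the −log10 of the p-value, they stood at 48.5% and 70.2% from the top, with 4.07-fold and 2.91-fold enrichment over the local background. That background comes from the same library, within 10 kb of the peak, and its part in the low scores was not tested. The highest-scoring Hoxa peak was chr6:52152689-52155205, with 311 tags, a score of 498.12 and 6.29-fold enrichment, among the highest 8.79% of the list. It was followed by chr6:52100093-52101732 (score 360.75, 156 tags) and chr6:52146409-52148060 (score 320.66, 132 tags).

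**Figure D2:**
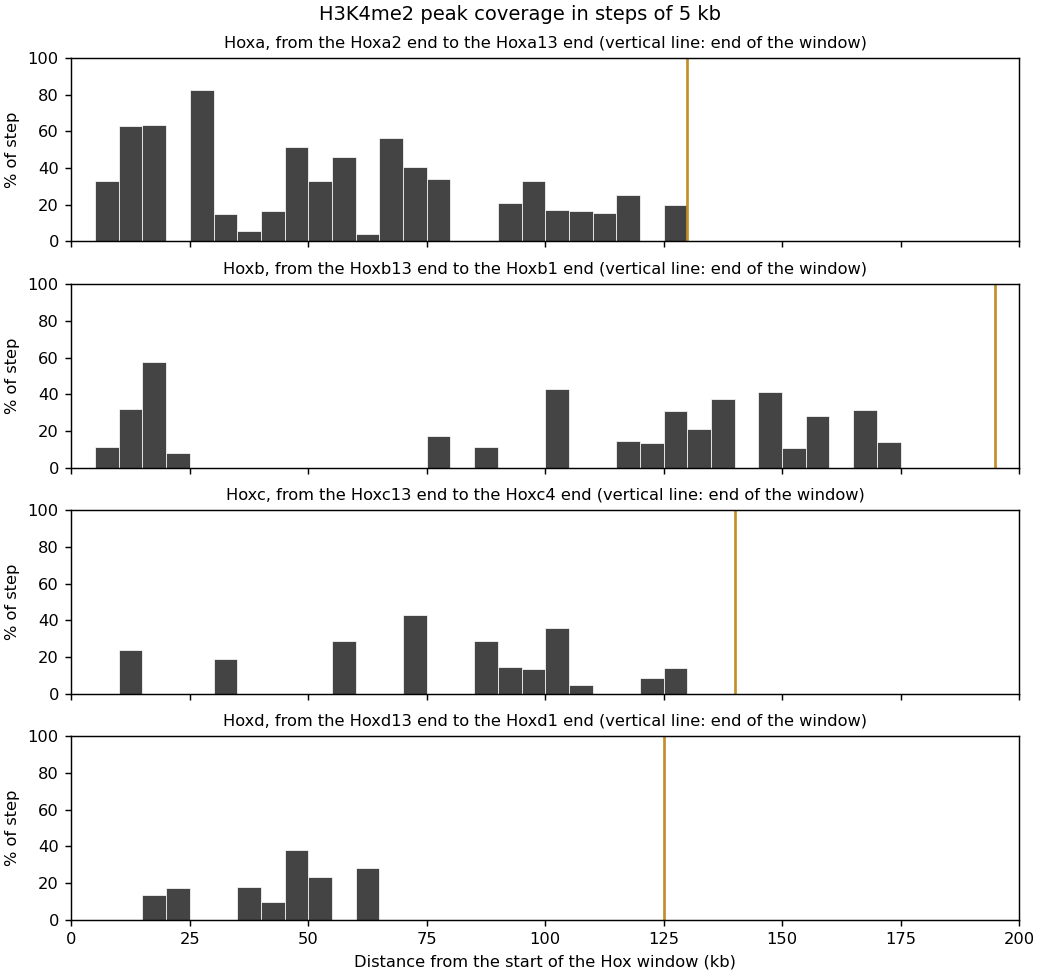
Percent of each 5-kb step covered by H3K4me2 peaks against the distance in kb from the start of each Hox window, with the end of the window as a vertical line. Hoxa has peaks in 21 of 26 steps, Hoxb in 17 of 39, Hoxc in 11 of 28 and Hoxd in 7 of 25.

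In Hoxb and Hoxc more bases were covered on the side of the anterior genes, and in Hoxd on the side of the posterior genes. The midpoints divide each window by length and need not divide its genes evenly. Past its midpoint, towards Hoxb1, Hoxb was 14.6% covered, and before it, at Hoxb13, 7.01%. Its longest stretch without a peak, 55.99 kb from 96065395 to 96121385, began 20.4 kb from the Hoxb13 end. In the GRCm38 gene order the widest gap between Hoxb genes is the one between Hoxb13 and Hoxb9. The peak with the highest score, also the widest, was chr11:96178950-96181865, with 373 tags (336 to 413) and a score of 695.51. It was among the highest 2.10% of the list. Next came chr11:96172370-96173905 (score 578.44, 12.2-fold) and chr11:96146822-96148954 (score 457.1, 6.93-fold).

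Hoxc held the H3K4me2 peak with the highest score of the windows, though others had more tags or a higher enrichment. At chr15:102828568-102830731 it had 338 tags (303 to 376), a score of 909.92 and 9.21-fold enrichment, and ranked 102 of 49457. A second peak at chr15:102811032-102813162 had 239 tags and a score of 652.18, and another at chr15:102796461-102797886 had 98 tags and a score of 319.31. The side towards Hoxc4 was 11.6% covered and the side at Hoxc13 5.06%. None of the 8 Hoxc peaks was wider than 2164 bp.

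The Hoxd peaks had the lowest median width, tags and score of the 4 windows, and 8 of the 9 lay on the side of Hoxd13. That side was 10.6% covered and the side towards Hoxd1 1.31%. No peak lay in the last 60.5 kb of the window, from 74554525 to 74615000. The widest gap between Hoxd genes in the GRCm38 gene order is the one between Hoxd4 and Hoxd1, on the Hoxd1 side. How far the spacing of the genes goes with the uneven coverage was not tested. Widths ran from 490 to 1381 bp with a median of 820 bp, against 1628 bp over the whole H3K4me2 list, and the median was 40 tags against 120. Their median enrichment, 7.28-fold, was above that of the list, 5.82-fold, and of Hoxa, 5.35-fold. The best scored was chr2:74510508-74511375 with 65 tags (50.2 to 82.8), a score of 270.23 and 16.2-fold enrichment, and the widest was chr2:74529098-74530478 with 74 tags and a score of 208.46. When the H3K4me2 list was shortened to its highest 16604 scores, Hoxd coverage fell to 0.694% and its ratio to the flanks to 0.553.

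As a group the 46 Hox peaks were somewhat narrower than the list, with a median of 1377.5 bp. Their median tag density was near that of the list, at 66.1 tags per kb against 68.9. Of the 46, 2 were wider than 3 kb, which is 4.35%, against 14.4% of all H3K4me2 peaks. Both were in Hoxa. A score of at least the list's median was reached by 8 of 17 peaks in Hoxa, 6 of 12 in Hoxb, 6 of 8 in Hoxc and 2 of 9 in Hoxd.

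FLAG peaks were few in the Hox windows, and 7 of the 8 lay in Hoxa. Hoxb held 1 Etv6 peak, and Hoxc and Hoxd held no peak of any FLAG library. Over the 4 windows there were 1.36 FLAG peaks per 100 kb, against 3.38 in the flanks, where 54 were found. By library the windows and flanks held 3 and 18 peaks of EGFP_OK, 1 and 9 of Pax6, and 4 and 27 of Etv6. FLAG peaks together covered 7.21% of the Hoxa window and 6.38% of its flanks, a ratio of 1.13 that turned to 0.348 at a score of at least 100 and to 0.585 with equal list lengths. In peaks per 100 kb Hoxa had 5.38 and its flanks 6.5. In Hoxb they covered 0.426%, against 3.01% of the flanks. In the flanks of Hoxc and Hoxd they covered 3.08% and 1.801%. Sites below the peak caller's limit are not in the lists, so binding under that limit was not detectable. The limit is a p-value against local background, not a number of tags. The lowest tag counts in the lists were 19 in EGFP_OK, 10 in Pax6 and 18 in Etv6, and sites with more tags can also be missing.

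**Figure D3:**
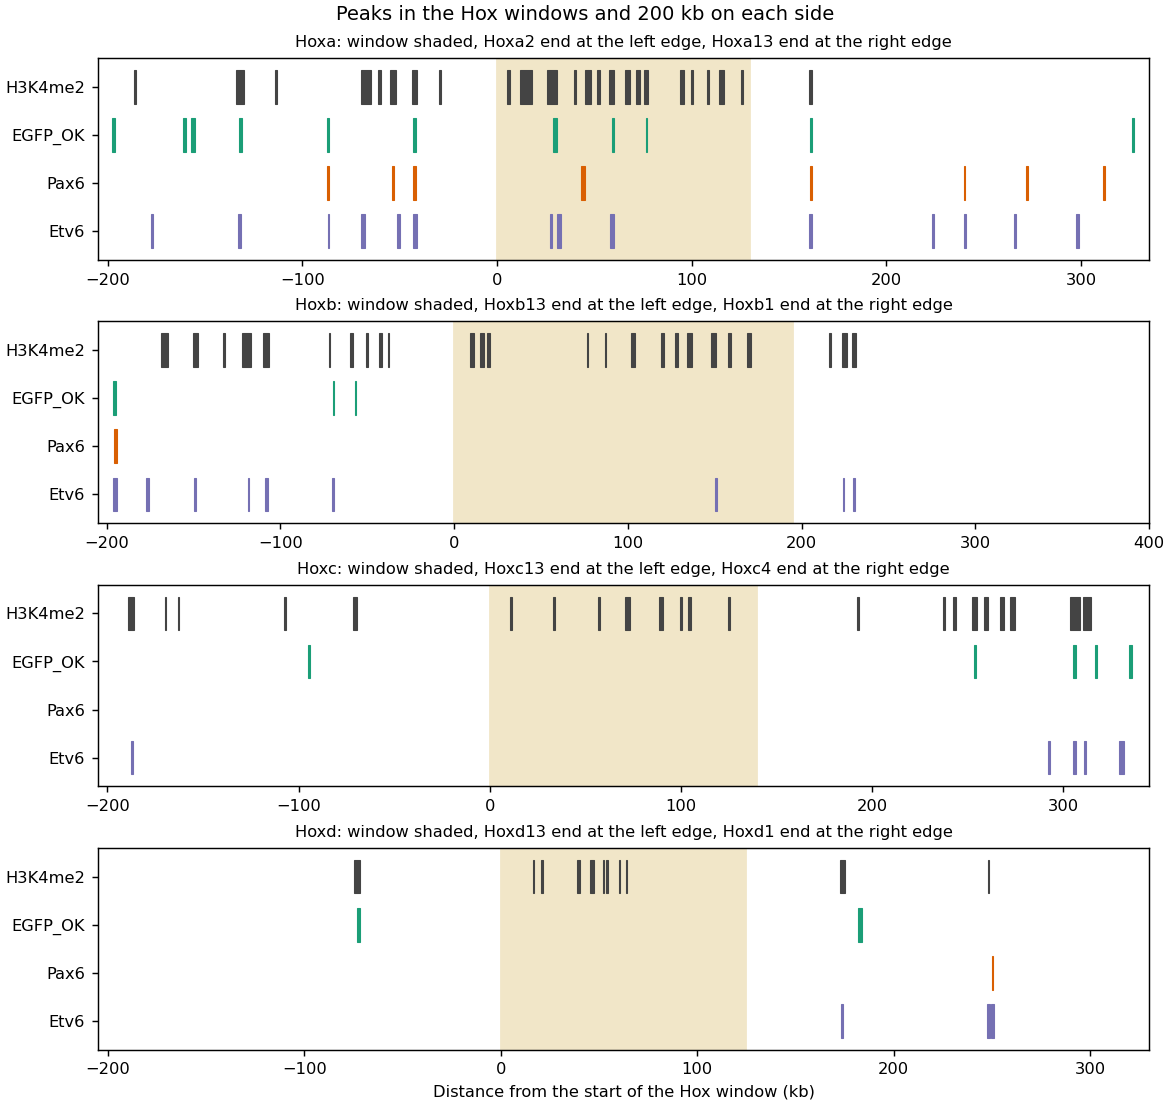
Peaks of the 4 libraries by distance in kb from the start of each Hox window (shaded) with 200 kb on each side. Each bar spans 1 peak and has a thin outline that slightly widens it. H3K4me2 peaks are spread along Hoxa and end 60.5 kb before the end of the Hoxd window, and FLAG peaks are in Hoxa, with 1 in Hoxb and none in Hoxc and Hoxd.

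Each FLAG peak of the windows is given here in the order of position. In Hoxa an Etv6 peak at chr6:52122300-52123441 had 77 tags (60.8 to 96.2), a score of 63.05 and 5.34-fold enrichment. An EGFP_OK peak followed at chr6:52123729-52125591 with 100 tags (81.4 to 122), a score of 102.65 and 8.77-fold enrichment. Both summits lay in the wide H3K4me2 peak at 52120867 to 52125761, the Etv6 summit 260 bp from its summit and the EGFP_OK summit 1204 bp from it, and the FLAG peaks did not touch each other. Over the whole lists 51.9% of Etv6 and 26.9% of EGFP_OK summits were in H3K4me2. A second Etv6 peak, at chr6:52126058-52127866 with 117 tags (96.8 to 140) and 3.71-fold enrichment, had its summit 1551 bp outside H3K4me2.

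The only Pax6 peak of the clusters was at chr6:52138161-52140002, with 34 tags (23.5 to 47.5), a score of 84.98 and 6.43-fold enrichment. Its summit was 1177 bp from the nearest H3K4me2 peak, and no other FLAG peak overlapped it. In the whole Pax6 list 72.6% of peaks overlapped an Etv6 peak, 20.1% an EGFP_OK peak, and 43.7% of summits were in H3K4me2.

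A single place in the windows was shared by FLAG lists. At chr6:52153147-52154988 an Etv6 peak with 77 tags and a score of 87.96 overlapped an EGFP_OK peak (52153870 to 52154900) with 32 tags (21.9 to 45.2) and a score of 59.17. Their summits were 176 bp apart. Both were inside the highest-scoring H3K4me2 peak of Hoxa, 257 bp and 81 bp from its summit. This was 1 of the 4 Etv6 peaks and 1 of the 3 EGFP_OK peaks of the windows, beside 19.2% and 20.9% over the whole lists. None of them met a Pax6 peak, which 38.9% of all Etv6 and 11.7% of all EGFP_OK peaks did. The last peak of Hoxa was of EGFP_OK, at chr6:52171327-52172204 with 29 tags (19.4 to 41.6), and its summit lay 207 bp from that of an H3K4me2 peak. In Hoxb the Etv6 peak at chr11:96195372-96196201 had 29 tags (19.4 to 41.6), a score of 60.21 and its summit 196 bp outside H3K4me2.

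The FLAG peaks of the windows were low in score, but not all were low in tags. Of the 8, only the EGFP_OK peak at 52123729 had a score of at least 100, against 41.1% of all FLAG peaks and 25 of the 54 in the flanks. By list that score was reached by 45.5% of EGFP_OK, 25.3% of Pax6 and 45.5% of Etv6 peaks. The 4 Etv6 peaks scored between 60.21 and 87.96, all below the list's median of 93.34. Of the 3 EGFP_OK peaks 1 was above its list's median of 92.75, and the Pax6 peak was above its median of 73.13. By tags, 5 of the 8 were above the median of their list. By tags per kb the Etv6 peaks at 52122300 and 52126058 were among the highest 15.3% and 17.8% of their list, and the EGFP_OK peak at 52123729 among the highest 22.6%. The other 5 stood between 56.1% and 95.2% from the top of theirs. Among the highest 16604 peaks of each list, the windows kept no Etv6 peak and 1 each of EGFP_OK and Pax6. The whole Pax6 list has 16604 peaks, so this cut could not remove its peak.

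**Figure D4:**
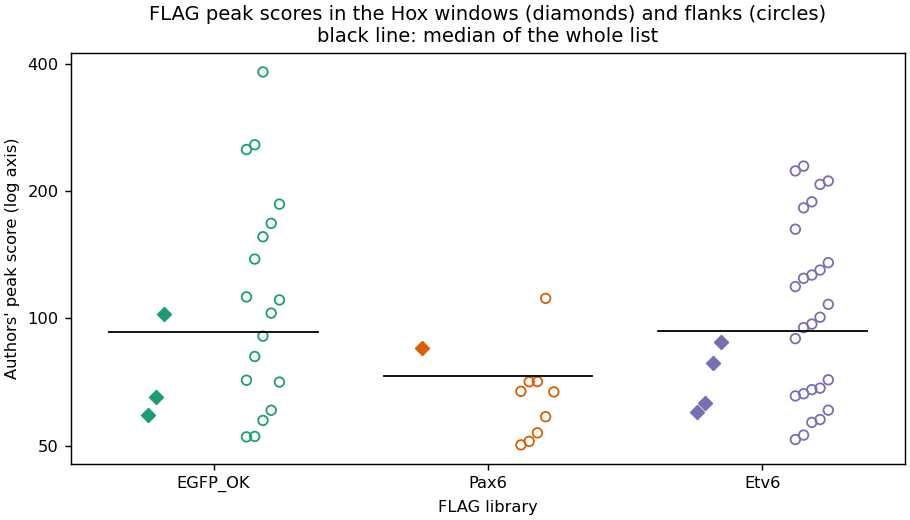
Authors' scores of the FLAG peaks on a log axis, by library, in the Hox windows (filled diamonds) and their flanks (open circles), with the median of each whole list as a black line. The window peaks sit between 59.17 and 102.65, while the flanks reach 383.3 in EGFP_OK and 229.43 in Etv6.

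To relate the factors to the mark, the H3K4me2 peaks that held a FLAG summit were counted. The mark was that of cells marked N31, whereas the Pax6 and Etv6 summits were from cells marked NS. In the Hox windows 3 of 46 did, 6.52% (exact 95% interval 1.37 to 17.9), against 40.3% of the whole H3K4me2 list. All 3 were in Hoxa, and none of the 12 peaks of Hoxb, 8 of Hoxc and 9 of Hoxd held one. In the flanks 17 of 42 did, 40.5% (25.6 to 56.7), near the value of the whole list. Etv6 summits were in 2 of 46 window peaks (whole list 31.9%) and 14 of 42 flank peaks. EGFP_OK summits were in 3 and 6 (15.3%), and Pax6 summits in 0 and 3 (14.5%). Summits of all FLAG libraries together were in 0 and 2, against 4.01% of the list. Read the other way, 5 of the 8 FLAG summits of the windows lay in H3K4me2, 62.5% (24.5 to 91.5), beside 40.8% of all FLAG peaks. All 5 were in Hoxa, where H3K4me2 peaks covered 26.7% of the bases, and the list value is not matched for that coverage.

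The width of the peaks moved with this count, since wide H3K4me2 peaks held FLAG summits more often. In the whole list the share rose from 18.0% of peaks up to 1 kb wide, through 33.3% at 1 to 2 kb and 54.0% at 2 to 3 kb, to 71.8% above 3 kb. In the windows the counts were 0 of 12, 1 of 20, 1 of 12 and 1 of 2 in the same order. In the flanks they were 1 of 8, 4 of 18, 5 of 7 and 7 of 9. The intervals treat neighbouring peaks as independent, which they need not be.

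**Figure D5:**
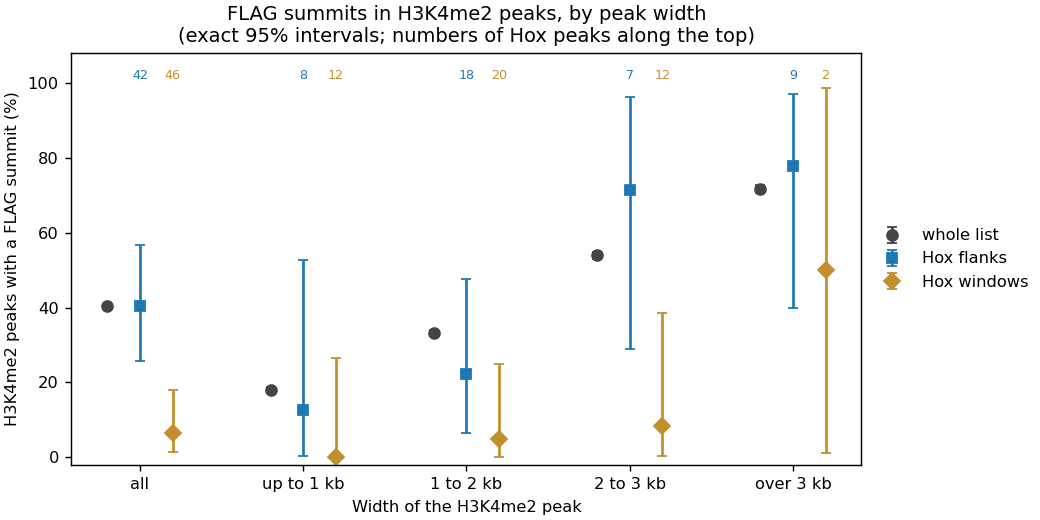
Share of H3K4me2 peaks that hold a summit of any FLAG library, in percent, by peak width, for the whole list (circles), the Hox flanks (squares) and the Hox windows (diamonds), with exact 95% intervals and the numbers of Hox peaks along the top. Over all widths the windows are at 6.52%, the flanks at 40.5% and the whole list at 40.3%.

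The number of FLAG peaks was also set beside the same tiles. The median tile held 3 FLAG peaks at the lengths of Hoxa, Hoxc and Hoxd, and 4 at that of Hoxb. The Hoxa window, with 7, was above it, and 81.7% of tiles held no more. As few as the 1 peak of Hoxb were in 30.0% of tiles, and no FLAG peak was in 26.2% of tiles of Hoxc length and 28.2% of Hoxd length. Tiles with 0 or 1 FLAG peak were common across the genome, where most tiles also held less H3K4me2 than these windows.

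FLAG peaks of several libraries met in the flanks, 30.5 kb or more from a window. In the 200 kb around Hoxa, all 3 FLAG lists had a peak at chr6:52051714-52053955, 41.0 kb before the window, with summits within 208 bp and inside H3K4me2. There the Etv6 peak reached a score of 229.43 with 154 tags, and the Pax6 peak, at 111.57 with 32 tags, was the strongest of that library in all flanks. All 3 also met at chr6:52255468-52256688, 30.5 kb past the Hoxa13 end of the window, with summits within 46 bp and inside the only H3K4me2 peak of that flank. At chr6:52007836-52008908, 86.1 kb before the window, they met within 133 bp outside H3K4me2. Pairs of lists met at other places. EGFP_OK and Etv6 met at chr6:51961705-51963994 inside H3K4me2, and Etv6 and Pax6 at chr6:52334713-52335929 outside it. The highest FLAG score of any flank was that of an EGFP_OK peak at chr6:51897260-51898733, with 145 tags, a score of 383.3 and 13.2-fold enrichment.

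Around the other clusters shared places were fewer. Beyond Hoxb13 all 3 lists met at chr11:95848796-95851152, 194 kb before the window, with summits spread over 673 bp and outside H3K4me2. On the same side EGFP_OK and Etv6 met at chr11:95975010-95975950, also outside H3K4me2. The strongest Etv6 peak of that side, at chr11:95895257-95896669, had a score of 223.49 and lay in the H3K4me2 peak chr11:95894632-95897637, which ranked 67 of 49457. On the Hoxb1 side an Etv6 peak at chr11:96274545-96275700 had a score of 207.63, 10.7-fold enrichment and its summit 35.1 kb past the window. Past the Hoxd1 end Etv6 and Pax6 met at chr2:74739708-74740909, 125 kb beyond the window, with summits 92 bp apart and no H3K4me2 at either. Beyond Hoxc4 EGFP_OK and Etv6 met at chr15:103045158-103046683 inside H3K4me2, and the 400-kb flanks of Hoxc held no Pax6 peak.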

How the data were processed

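Peaks were called on each library by the authors with MACS 1.4.2, without a control file, at a p cutoff of 1e-05, with 1 tag kept per position and a background range of 10 kb, per the file headers. The submitters' processing notes also name BWA 0.6.2, CASAVA 1.8.1 and mm9. Each deposited list gives a count of tags per peak, a score (10 times the −log10 of the p-value) and a fold enrichment (a ratio to local background), per the file headers.

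Peaks on chromosomes 1 to 19 and X were kept. Windows and 200-kb flanks were intersected in Python 3.11.15 (pandas 2.3.3, numpy 2.4.6, intervals from scipy 1.17.1), clipping peaks at window edges. Summits were taken as start plus offset minus 1. Shares have exact Clopper-Pearson and tags exact Poisson 95% intervals, for counting error only. The overlap functions were tested on simulated intervals. Named regions were every FLAG peak of the windows, the widest and the 3 best scored H3K4me2 peaks per window, those with summits of several FLAG libraries, and from the flanks the best scored peaks. Places shared between lists in the flanks, promoters, widths and tiles were added after seeing values. Members and lists were chosen with earlier results of these data known. Alternatives were a score of at least 100, equal list lengths, other flanks and other overlap rules.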

Additional observations from a re-analysis of the deposited data

How the results depend on the processing

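No paired analysis was possible because each group held 1 library and no result comes from a test. Values are called moved where they differed by over 1.5 times, or left the exact interval of a share. Of 159 alternative values, 41 were moved and 8 turned a ratio to the flanks to the other side of 1. Of the 110 not moved, 61 were FLAG values of Hoxb, Hoxc and Hoxd that are 0 with all peaks, which these alternatives could not move. At most the other 49 bear on stability. They include Pax6 values with equal list lengths, which could not move because that list was not shortened. Assigning peaks by summit, or requiring 50% overlap in place of the summit rule, moved none.

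With a score of at least 100, Etv6 and Pax6 coverage of Hoxa, Etv6 and joint FLAG coverage of Hoxb, and their ratios, were 0. EGFP_OK and joint FLAG coverage of Hoxa were both 1.43%, and their ratios turned to 0.615 and 0.348. Hoxd H3K4me2 coverage was 3.26% (ratio 2.60). Peak counts were 1 for EGFP_OK, 0 for Pax6 and 0 for Etv6, of which 100% were in H3K4me2, and 0 pairs met.

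With the highest 16604 peaks of each list, H3K4me2 coverage was 6.17% in Hoxa (ratio 1.72), 6.48% in Hoxb, 5.14% in Hoxc and 0.694% in Hoxd (ratio 0.553, turned). This keeps 16604 of 49457 H3K4me2 peaks and the whole Pax6 list, which is the shortest. EGFP_OK covered 1.43% of Hoxa (ratio 0.615, turned), joint FLAG peaks 2.85% (0.585, turned), and Etv6 0 of Hoxa and Hoxb. Counts were 1 for EGFP_OK, 1 for Pax6 and 0 for Etv6. Of these FLAG peaks 0% were in H3K4me2, and 0% of the kept H3K4me2 peaks held a summit. In the full list the EGFP_OK summit lay in the H3K4me2 peak at 52120867 to 52125761. That peak ranked 34738 of 49457 and is absent from the shortened list.

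With 100-kb flanks the ratios were 1.77 for EGFP_OK in Hoxa, 0.299 for Etv6 and 0.214 for joint FLAG peaks in Hoxb, and 4.05 and 2.37 for H3K4me2 in Hoxc and Hoxd. With 500-kb flanks they were 1.15 for Pax6 and 1.17 for Etv6 in Hoxa (both turned), and 0.653 (turned) and 10.7 for H3K4me2 in Hoxc and Hoxd. No pair had summits within 100 bp (0). Tiles laid from another start, chosen after seeing the data, moved no value. Apart from the shortened lists, the share of H3K4me2 peaks that held a FLAG summit stayed inside its interval. The share of FLAG summits in H3K4me2 left its interval (24.5 to 91.5%) at a score of at least 100 too. There it was 100%, from 1 EGFP_OK peak. The Pax6 library kept the fewest tags, after 81% of its tags were redundant, and calling at matched depth was not tested.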
